A study of Capra hircus with 21 samples.

Results

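Morulae were set against 8-cell embryos of the goat (Capra hircus) over every gene of a deposited expression table. The comparison took the 3 morula and the 3 8-cell libraries by their stage labels, 6 of 21 libraries in a series of 7 stages that ran from the oocyte to the blastocyst. All embryos had developed in vivo, and the labels give only their stage, with no treatment, genetic change, breed or age named. A further 3 libraries of 16-cell embryos were used only to place each change before or after that stage. Libraries of a stage are lettered A to C, and values of a stage are given in that order. The labels do not say which animals the libraries came from or how many embryos each held, so the p-values rest on the spread among libraries of a stage, which may be technical rather than biological. For morula A, they record that the file of second reads was damaged and was not submitted.

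An embryo begins cleavage with RNA that the oocyte stored, while its own genome is almost silent. These maternal RNAs are then cleared, and transcription from the embryo's genome takes over. In ruminants the main wave of this activation falls in the middle of cleavage. At the morula stage, a ball of cells with no cavity yet, the cells flatten onto each other, before the blastocyst forms an outer trophectoderm and an inner cell mass.

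The unit was RPKM, the deposited read counts scaled by gene length and library size. Steps between the low values showed that the length used ran over exons and introns alike, and that a gene without a read is listed at 0.01. Reads in the listed genes, rounded, numbered 8480000 to 22180000 in the morula libraries, 19280000 to 23520000 in the 8-cell libraries and 12760000 to 17710000 in the 16-cell libraries. Of 19040 genes, 4253 reached 1 RPKM in at least 3 of the 21 libraries and were tested. A gene was called when its adjusted p was below 0.05 and it differed by at least 1 on the log2(RPKM + 1) scale, in limma with all 7 stages in the model. All log2 differences below are morula minus 8-cell on that scale, which understates the change of low genes.

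Morula C and 16-cell C stood apart from their stage mates. On the first principal component, which held 60.8% of the variance over all libraries, morula C lay at 37.3, against 74.3 and 72.3 for morulae A and B. 16-cell C lay at 7.60, against 35.8 and 40.5 for 16-cell A and B, while the 8-cell libraries lay between -43.4 and -38.0. Morula C correlated with the 16-cell libraries at Pearson's r = 0.915 to 0.933 across the tested genes, but with morulae A and B at 0.868 and 0.893. These correlations run across genes, which are not independent replicates. Results are therefore also given without both C libraries where these move them.

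Between the 8-cell stage and the morula, 2071 of the 4253 tested genes were called (48.7%). In morulae, 1144 were higher (26.9%) and 927 were lower (21.8%). The median log2 difference was 2.00 among the higher genes, -1.52 among the lower genes and 0.01 over all genes tested. A difference of 4 or more on the log2 scale was reached by 127 higher and 20 lower genes. Of the called genes, 2015 had morula values that all lay on the same side of all 8-cell values, and so did 3138 of all tested genes (73.8%). Without both C libraries, 1199 genes (28.2%) were higher and 1105 (26.0%) lower. On RPM, reads scaled by library size without gene length, 10384 genes could be tested, of which 2120 (20.4%) were higher and 3800 (36.6%) lower. Without morula A, 1093 were higher and 836 lower.

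The called genes carried much of the RNA that was read. Genes called lower took 5.51, 5.23 and 19.8% of the gene reads in the morula libraries, against 48.8, 49.2 and 48.7% in the 8-cell libraries. Genes called higher took 48.2, 45.8 and 34.6% in morulae and 4.56, 4.43 and 6.04% in 8-cell embryos. Since the genes were chosen on these same libraries, the shares are a description. In each morula the higher genes held more reads than the lower genes, by the least in morula C, and in each 8-cell library the reverse held. In bulk RNA, fewer cells of a type and less RNA per cell cannot be told apart.

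**Figure D1:**
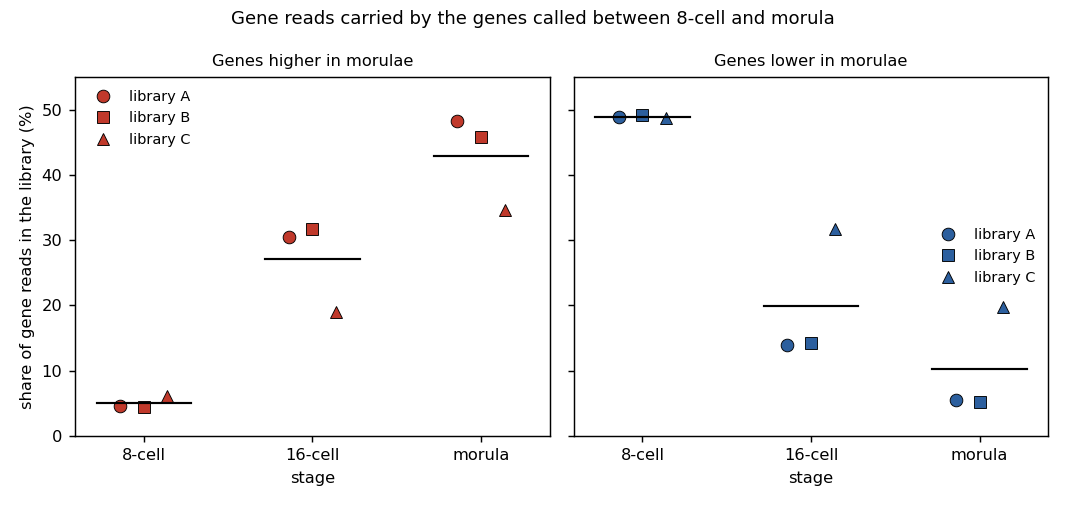
Share of all gene reads (%) in each 8-cell, 16-cell and morula library that lay in the 1144 genes called higher in morulae (left) and the 927 called lower (right); symbols are libraries A to C and lines are stage means. The lower genes fell to 5.23 to 19.8% of reads in morulae, against 48.7 to 49.2% in 8-cell embryos, and library C of the 16-cell and morula stages lay nearest the preceding stage.

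Genes of the growing and ovulated oocyte were among the largest falls. GDF9, a growth factor that the oocyte secretes, stood at 0.541, 0.647 and 11.1 RPKM in morulae, against 178, 208 and 188 RPKM in 8-cell embryos (log2 difference -5.94 ± 0.65 SE, adjusted p = 3.33e-07). The 3 morula values lay below all 8-cell values, and morula C lay near 16-cell A and B, since the 16-cell libraries held 7.05, 9.71 and 57.6 RPKM. The deposited table, whose genome build is not given in the sources used here, places GDF9 on chromosome 7, 66025761 to 66028246, plus strand. Its partner BMP15 measured 0.529, 2.43 and 20.9 RPKM in morulae and 85.6, 94.4 and 73.5 RPKM in 8-cell embryos (log2 difference -4.13 ± 0.62, adjusted p = 1.17e-05). ZP4, a protein of the zona pellucida, the coat around the oocyte, measured 0.0347, 0.163 and 1.32 RPKM in morulae and 49.1, 53.5 and 26.3 RPKM in 8-cell embryos (log2 difference -4.90 ± 0.46, adjusted p = 5.05e-08). Of 5 listed genes of this group, 4 were tested and all 4 fell, with a median log2 difference of -4.52.

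The stored machinery that arrests and releases meiosis was also lower in morulae. MOS, the kinase that holds the egg in metaphase, measured 0.219, 0.376 and 12.5 RPKM in morulae and 35.1, 30.4 and 39.7 RPKM in 8-cell embryos (log2 difference -3.67 ± 0.63, adjusted p = 4.44e-05). FBXO43, which keeps the anaphase-promoting complex of eggs in check, averaged 1.11 ± 1.66 RPKM in morulae and 12.5 ± 2.21 RPKM in 8-cell embryos (SD, n = 3 each, as for every mean below). Of 11 tested genes of meiotic arrest and exit, 7 fell and none rose, against 21.8 and 26.9% of all genes. Among maternal-effect genes, whose products the early embryo inherits, 7 of 9 tested fell and none rose. Of 14 listed, 8 averaged at least 1 RPKM in 8-cell embryos and 3 in morulae, so some passed the filter only where they were high. On RPM, 10 of 13 fell and 2 rose, against 36.6 and 20.4% of all genes on that scale. OOEP, a member of the complex under the egg's surface, fell to 2.22, 1.42 and 25.4 RPKM in morulae, against 68.8, 59.3 and 78.3 RPKM in 8-cell embryos (adjusted p = 4.42e-04). NLRP14, a gene of oocytes and early embryos, averaged 0.616 ± 0.969 RPKM in morulae and 10.7 ± 1.81 RPKM in 8-cell embryos. H1FOO, the linker histone of oocytes, averaged 2.98 ± 4.63 RPKM in morulae and 18.7 ± 2.46 RPKM in 8-cell embryos (log2 difference -2.96, adjusted p = 2.41e-04). Of 6 listed oocyte transcription factors, 2 were tested and neither was called. On RPM all 6 could be tested, and 4 fell and none rose, against 36.6 and 20.4% of all genes on that scale. NLRP5 and ZAR1 were not analysed here.

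PAIP1 and BTG4 act on the poly(A) tail, which bears on how long an mRNA lasts and is translated. PAIP1, a partner of the poly(A)-binding protein, held the largest share of gene reads of any gene in 8-cell embryos, 2.89% on average. It measured 2.66, 1.64 and 145 RPKM in morulae and 401, 367 and 419 RPKM in 8-cell embryos (log2 difference -5.14 ± 0.92, adjusted p = 7.30e-05). BTG4, which recruits the deadenylase that removes maternal mRNA, measured 1.65, 2.998 and 52.3 RPKM in morulae and 185, 151 and 186 RPKM in 8-cell embryos (log2 difference -4.40 ± 0.73, adjusted p = 3.44e-05). For both genes morulae A and B were low and morula C was high among morulae. Without both C libraries, the log2 difference was -6.99 for PAIP1 and -5.74 for BTG4. PABPC1, the main cytoplasmic poly(A)-binding protein of somatic cells, went the other way, with 38.7, 26.2 and 12.01 RPKM in morulae and 5.11, 5.05 and 3.73 RPKM in 8-cell embryos (log2 difference 2.11 ± 0.41, adjusted p = 1.48e-04). Of 44 listed genes of tail and decay control, 21 were tested, of which 3 rose and 6 fell, against 26.9 and 21.8% of all genes.

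The rest of the 12 largest falls, among genes with a symbol, at least 10 RPKM in the higher stage and no overlap between stages, belonged to varied classes. IFIT5, an interferon-induced RNA-binding protein, measured 0.01, 1.22 and 18.8 RPKM in morulae and 119, 104 and 161 RPKM in 8-cell embryos, so morula A had no read. MPHOSPH9, a centrosomal protein that checks cilium formation, averaged 1.57 ± 1.98 RPKM in morulae and 53.0 ± 15.7 RPKM in 8-cell embryos. USP44, a deubiquitinase of the spindle checkpoint, averaged 2.28 ± 3.22 RPKM in morulae and 51.2 ± 0.917 RPKM in 8-cell embryos. In each of these, morula C was the highest of the 3 morulae. The ubiquitin-ligase family members TRIM77 and TRIM59 had log2 differences of -4.42 and -4.17. HIST1H1A, a replication-coupled linker histone, stood at 3.29, 3.496 and 80.2 RPKM in morulae and 226, 312 and 175 RPKM in 8-cell embryos (adjusted p = 5.03e-05), with the reserve that histone genes share near-identical sequence. CD200, a membrane glycoprotein, measured 0.181, 0.236 and 37.7 RPKM in morulae and 86.6, 61.1 and 61.1 RPKM in 8-cell embryos, so that morula C alone accounted for most of its morula mean of 12.7 RPKM. Over all lower genes, morula C was the highest of the 3 morula libraries for 832 (89.8%). The median lower gene kept 7.64, 6.47 and 31.9% of its 8-cell mean in morulae A, B and C.

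The largest rise among genes with a symbol was in CTSV, a lysosomal cysteine protease. It measured 481, 594 and 181 RPKM in morulae and 0.354, 0.697 and 0.930 RPKM in 8-cell embryos (log2 difference 7.83 ± 0.77, adjusted p = 9.58e-08). A lack of overlap was a condition of its choice, and its 3 morula values lay far above all 3 8-cell values. Morula C was the lowest morula. CTSV lies on chromosome 8, 83339505 to 83347809, minus strand of the table, spans 8.30 kb and held 0.984% of gene reads in morulae on average. PTRH2, a mitochondrial peptidyl-tRNA hydrolase, measured 337, 384 and 290.0 RPKM in morulae and 11.2, 6.41 and 7.57 RPKM in 8-cell embryos (log2 difference 5.19 ± 0.49, adjusted p = 5.05e-08). RACK1, a scaffold protein of the small ribosomal subunit, measured 142, 157 and 106 RPKM in morulae and 1.62, 1.44 and 1.65 RPKM in 8-cell embryos (log2 difference 5.71 ± 0.38, adjusted p = 6.86e-10). In CTSV, PTRH2 and RACK1 together, no 8-cell value exceeded 11.2 RPKM and no morula value was under 106 RPKM.

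An annexin partner and a lectin were also among the largest rises. S100A10, which binds annexin at the plasma membrane, measured 15.7, 41.1 and 41.6 RPKM in morulae and 0.116, 0.0476 and 0.401 RPKM in 8-cell embryos (log2 difference 4.72 ± 0.46, adjusted p = 7.52e-08). LGALS1, a galactose-binding lectin, measured 66.4, 42.5 and 12.6 RPKM in morulae and 0.182, 0.143 and 0.633 RPKM in 8-cell embryos (log2 difference 4.71 ± 0.43, adjusted p = 3.17e-08). They differed in time. S100A10 averaged 0.188 ± 0.188, 58.7 ± 37.99 and 32.8 ± 14.8 RPKM at the 8-cell, 16-cell and morula stages, and LGALS1 0.319 ± 0.273, 2.76 ± 1.21 and 40.5 ± 27.0 RPKM.

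**Figure D2:**
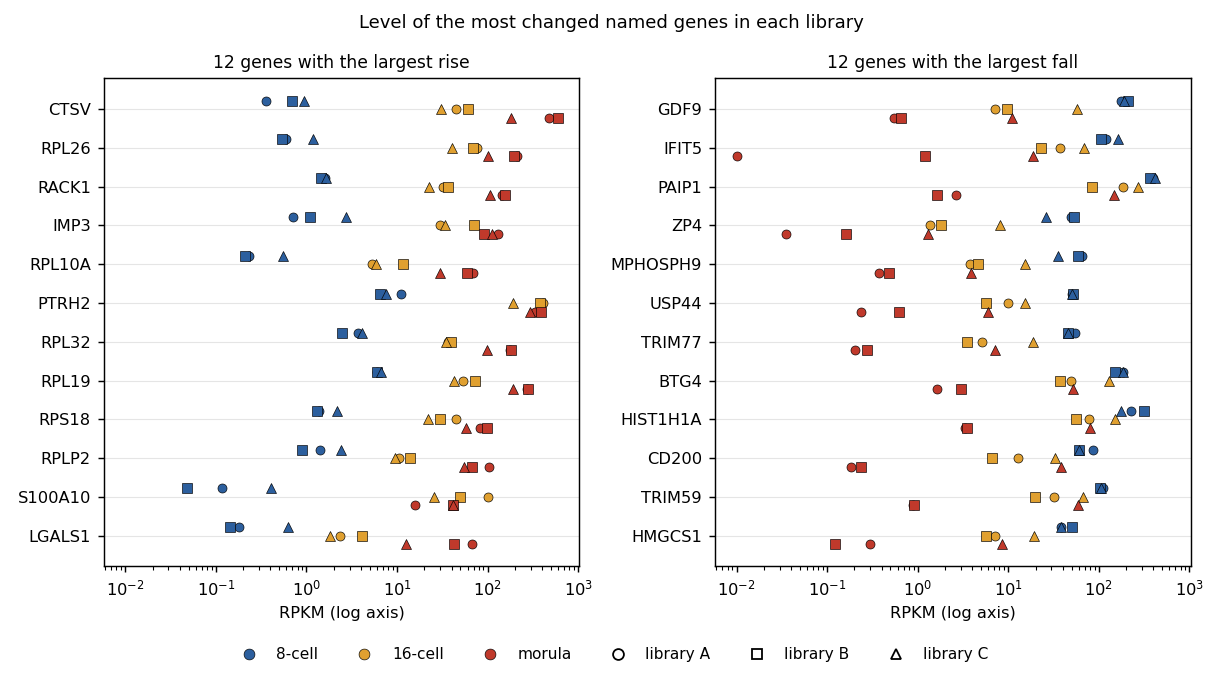
Level (RPKM, log axis) of the 12 named genes with the largest rise (left) and fall (right) in each 8-cell, 16-cell and morula library; colours are stages and symbols are libraries A to C. By the rule of choice, every morula value lies above every 8-cell value on the left and below it on the right. Morula C (triangle) is the highest morula for all 12 falls.

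The 16-cell libraries divided the changes in time. A change was classed early when the 16-cell mean lay at least 66.7% of the way from the 8-cell to the morula mean on the log2 scale, late when it lay at most 33.3% of the way, and between otherwise. Of the higher genes, 485 (42.4%) were early, 393 (34.4%) between and 266 (23.3%) late. Of the lower genes, 609 (65.7%) were early, 262 (28.3%) between and 56 (6.04%) late. The median lower gene had covered 75.2% of its fall by the 16-cell stage, and the median higher gene 59.8% of its rise. Without both C libraries, 9.68% of lower and 27.5% of higher genes were late. The early shares were then 67.2 and 43.2%. Each C library alone moved the division further: early falls numbered 752 without 16-cell C and 492 without morula C, and early rises 562 and 440. Without 16-cell A or B alone, early falls numbered 475 and 471, and early rises 485 and 397. The early counts thus depend on single libraries, and not on the C libraries alone.

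**Figure D3:**
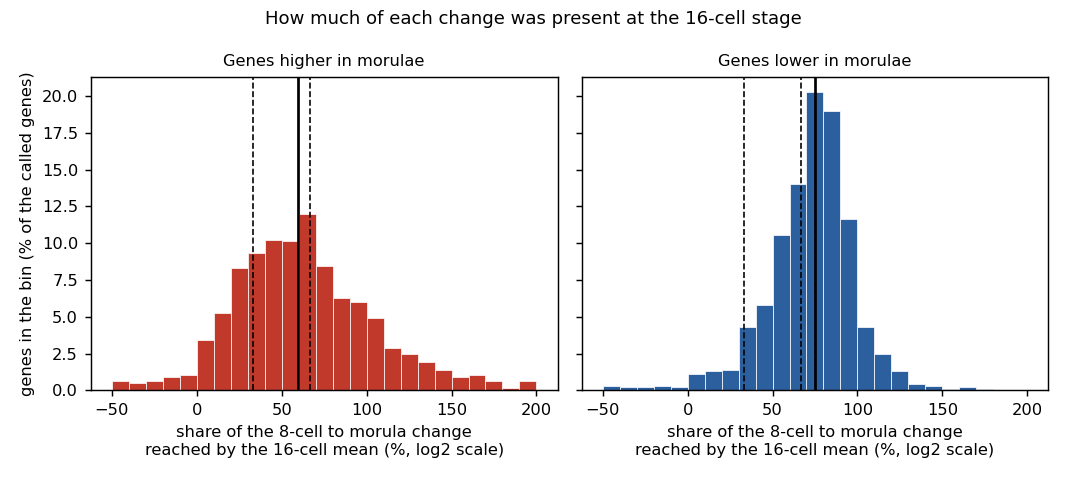
Share of the 8-cell to morula change that the 16-cell mean had reached (%, on the log2(RPKM + 1) scale) for the 1144 genes higher (left) and 927 genes lower (right) in morulae, as percent of genes per bin of 10 points; values beyond the axis are drawn in the end bins, dashed lines mark the limits of late and early, and the solid line is the median. The medians are 59.8% for higher and 75.2% for lower genes, and the higher genes are spread more widely.

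The separate steps were also tested. Of all genes tested, 1502 (35.3%) were called between the 8-cell and 16-cell stages and 683 (16.1%) between the 16-cell stage and the morula, and both comparisons use the same 16-cell libraries. Of the higher genes, 477 were called higher in the step up to the 16-cell stage alone, 244 in the later step alone and 189 in both. Of the lower genes, these numbers were 549, 50 and 43. Neither step was called for 234 higher and 285 lower genes, whose change reached the threshold only over the whole interval.

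Under the same conditions of symbol, level and overlap, the largest late falls were IFIT5, PAIP1, BTG4, HIST1H1A and CIART, a repressor of the circadian clock. CIART averaged 92.5 ± 14.8, 52.8 ± 19.6 and 13.5 ± 15.6 RPKM at the 8-cell, 16-cell and morula stages, with 1.45, 7.90 and 31.1 RPKM in the 3 morulae. The largest late rises under these conditions included LGALS1, RPL27, NAA38 and MYL6B. LGALS1, NAA38 and MYL6B, at 31.4, 31.4 and 32.1% of the way, also lay close to the limit. RPL27, a protein of the large ribosomal subunit, averaged 11.96 ± 2.49, 22.5 ± 2.08 and 192 ± 108 RPKM over the 3 stages. NAA38 belongs to an N-terminal acetyltransferase and averaged 1.63 ± 0.271, 4.48 ± 0.754 and 27.1 ± 8.93 RPKM. MYL6B, a myosin light chain, averaged 0.899 ± 0.436, 2.69 ± 0.297 and 17.2 ± 12.1 RPKM. For PAIP1 the 16-cell libraries still held 186, 84.4 and 269.7 RPKM and for BTG4 49.4, 37.5 and 129.7 RPKM, far above morulae A and B.

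The machinery of protein synthesis rose in morulae. Of 80 symbols for cytosolic ribosomal proteins, 30 were found in the table. All 30 passed the filter, and 29 rose and none fell, against 26.9 and 21.8% of all genes. Their median log2 difference was 3.59. RPL26 measured 209, 195 and 102 RPKM in morulae and 0.596, 0.540 and 1.18 RPKM in 8-cell embryos (log2 difference 6.53 ± 0.37, adjusted p = 2.70e-10). RPL10A, also of the large subunit, measured 68.5, 58.5 and 29.8 RPKM in morulae and 0.230, 0.210 and 0.551 RPKM in 8-cell embryos (log2 difference 5.25 ± 0.31, adjusted p = 2.70e-10). The other large rises of the group were RPL32, RPL19, RPS18 and RPLP2, with log2 differences of 5.07, 5.06, 4.92 and 4.88. The 30th, RPSA, averaged 14.2 ± 10.8 RPKM in morulae and 6.60 ± 2.23 RPKM in 8-cell embryos and was not called (adjusted p = 0.170). Of the 29 rises, 4 were early, 19 between and 6 late. How reads of near-identical ribosomal pseudogenes were counted is not given, so single values of this group are uncertain.

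Factors that build the ribosome rose mostly by the 16-cell stage. Of 36 tested genes of nucleolar ribosome assembly, 20 rose, 14 of them early and none late, and 4 fell, against 26.9 and 21.8% of all genes. Without both C libraries, 16 of 21 rises were early and 2 late, and on RPM 17 of 26 were early and 2 late. IMP3, a subunit of the complex that processes ribosomal RNA, measured 129, 91.9 and 112 RPKM in morulae and 0.718, 1.10 and 2.71 RPKM in 8-cell embryos (log2 difference 5.55 ± 0.62, adjusted p = 3.67e-07). NHP2, which guides modification of ribosomal RNA, measured 24.0, 17.3 and 26.8 RPKM in morulae and 0.410, 0.447 and 0.445 RPKM in 8-cell embryos (adjusted p = 1.78e-07). The falls included GTPBP4 and NMD3, which act on the large subunit. GTPBP4 averaged 6.37 ± 2.84 RPKM in morulae and 34.2 ± 2.35 RPKM in 8-cell embryos, and NMD3 0.595 ± 0.288 RPKM in morulae and 6.47 ± 0.337 RPKM in 8-cell embryos.

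Translation factors rose more often than they fell. Of 26 tested, 13 rose and 3 fell, against 26.9 and 21.8% of all genes. After quantile normalization 9 rose and 5 fell. EIF3G, a subunit of initiation factor 3, measured 43.0, 42.7 and 45.0 RPKM in morulae and 1.47, 1.30 and 1.03 RPKM in 8-cell embryos (log2 difference 4.30 ± 0.41, adjusted p = 5.05e-08). EEF1A1, which brings aminoacyl-tRNA to the ribosome, measured 235, 248 and 185 RPKM in morulae and 18.9, 20.8 and 18.7 RPKM in 8-cell embryos (log2 difference 3.44 ± 0.43, adjusted p = 1.33e-06). EIF1AX, an initiation factor often followed as a mark of genome activation in ruminant embryos, measured 24.97, 14.2 and 16.0 RPKM in morulae and 2.37, 2.29 and 2.41 RPKM in 8-cell embryos (adjusted p = 5.17e-06). Its 16-cell mean was 19.8 ± 10.8 RPKM, so its rise was early. EIF5B, which joins the ribosomal subunits, averaged 4.60 ± 3.903 RPKM in morulae and 12.3 ± 2.19 RPKM in 8-cell embryos (adjusted p = 0.00226). EIF5, a GTPase-activating initiation factor, averaged 60.2 ± 29.2 RPKM in morulae and 51.5 ± 7.58 RPKM in 8-cell embryos and was not called. EIF1B, whose log2 difference was -1.32 (adjusted p = 0.0232), had overlapping values, 0.522, 1.10 and 4.55 RPKM in morulae and 6.80, 3.38 and 7.08 RPKM in 8-cell embryos, and lost its call without 8-cell A or C or morula A or B. Of 10 tested aminoacyl-tRNA synthetases and partners, which charge tRNA, 2 rose and 2 fell, near the shares over all genes. Of these, AIMP2 lost its call without both C libraries and without 8-cell B, morula B or morula C alone, and RARS (adjusted p = 0.0499) without 8-cell A or B or morula A or B.

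**Figure D4:**
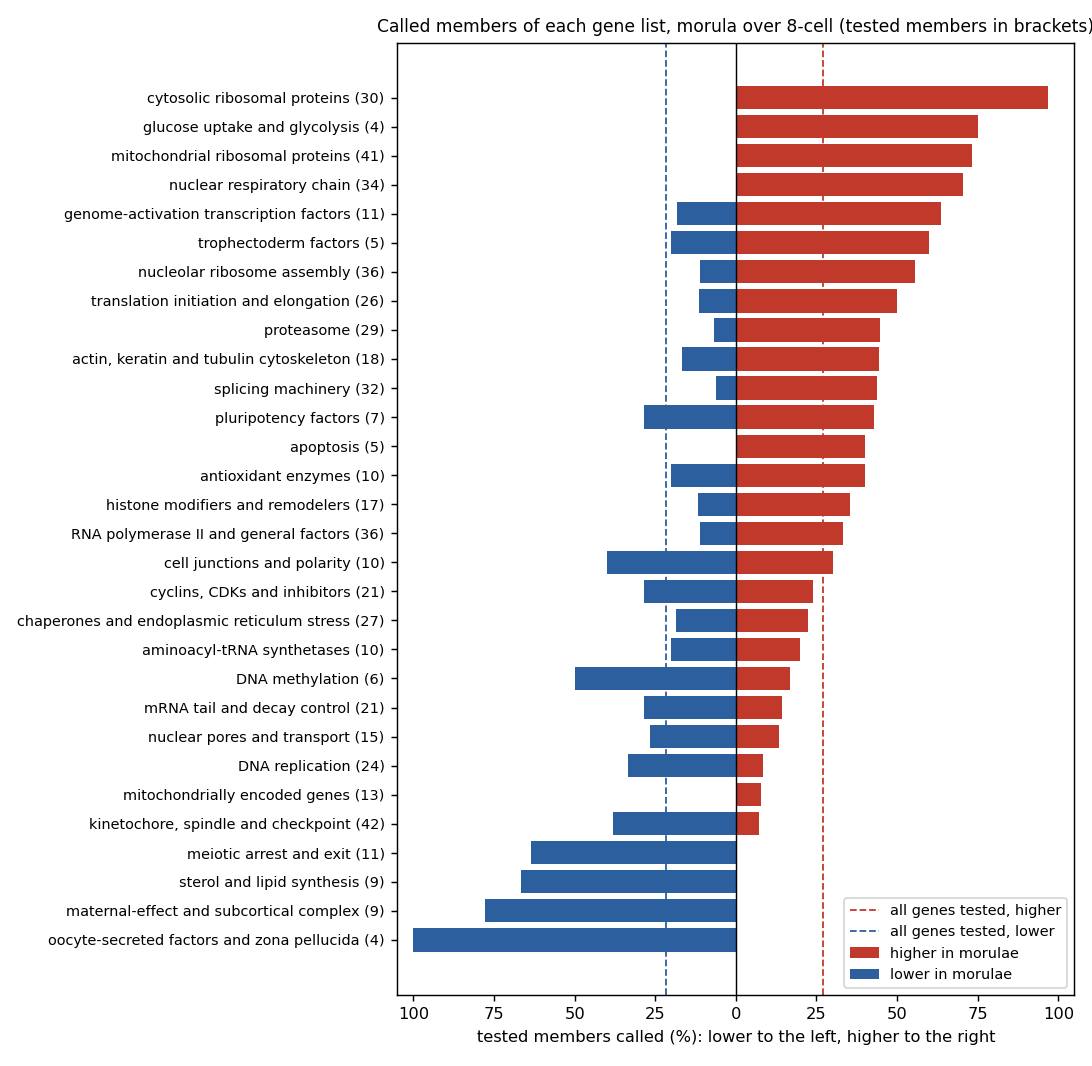
Percent of the tested members of each gene list that were called higher (right, red) or lower (left, blue) in morulae than in 8-cell embryos, for lists with at least 4 tested members; dashed lines are the shares over all 4253 tested genes, 26.9 and 21.8%. Ribosomal protein genes (29 of 30) are at the higher end, and genes of oocyte-secreted factors and the zona pellucida (4 of 4) at the lower end.

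Nuclear genes of the respiratory chain rose, mostly late. Of 39 listed, 34 passed the filter, and 24 of these rose and none fell, 2 early, 7 between and 15 late. Of the 39, 31 averaged at least 1 RPKM in morulae and 15 in 8-cell embryos, so some passed the filter only where they were high. With RPM, where all 39 could be tested, 30 rose and 1 fell, against 20.4 and 36.6% of all genes on that scale. COX6B1, a subunit of cytochrome oxidase, measured 44.3, 31.5 and 22.7 RPKM in morulae and 1.35, 1.18 and 2.42 RPKM in 8-cell embryos (log2 difference 3.65 ± 0.35, adjusted p = 5.09e-08). NDUFB9, a subunit of complex I, measured 33.9, 23.6 and 14.8 RPKM in morulae and 1.36, 1.09 and 1.58 RPKM in 8-cell embryos (adjusted p = 8.45e-06). In both genes morula C was the lowest morula and still several times above the 8-cell libraries. NDUFS5 and NDUFB4, also of complex I and picked after their values were seen as late rises, averaged 1.38 ± 0.391, 0.772 ± 0.557 and 16.4 ± 9.67 RPKM and 1.36 ± 1.09, 1.29 ± 0.751 and 15.2 ± 8.80 RPKM over the 8-cell, 16-cell and morula stages.

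Mitochondrial ribosomal proteins, which translate the mitochondrial genome, showed 30 rises and no fall among 41 tested of 56, with 8 early, 10 between and 12 late. Of the 56, 39 averaged at least 1 RPKM in morulae and 16 in 8-cell embryos, so here too some passed the filter only where they were high. On RPM, 37 of 55 rose and 1 fell, against 20.4 and 36.6% of all genes on that scale. MRPL24 averaged 24.3 ± 9.63 RPKM in morulae and 0.814 ± 0.393 RPKM in 8-cell embryos (log2 difference 3.76, adjusted p = 1.64e-06). MRPL17 measured 101.03, 125 and 165 RPKM in morulae and 8.67, 8.63 and 15.1 RPKM in 8-cell embryos. Transcripts of the mitochondrial genome itself were less clear. They took 9.77, 13.8 and 3.23% of gene reads in morulae and 4.72, 3.29 and 2.11% in 8-cell embryos, so that morula C lay within the 8-cell range. Of the 13 mitochondrially encoded genes, only COX2 was called, with 698, 907 and 193 RPKM in morulae and 242, 146 and 131 RPKM in 8-cell embryos (log2 difference 1.57 ± 0.58, adjusted p = 0.0211). The call was lost without 8-cell B or C or morula A or B. Without both C libraries, 9 of the 13 were higher. The median log2 difference of the 13 was 1.04 with all libraries.

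Genes of glucose use were mostly under the filter. Of 20 listed, 4 averaged at least 1 RPKM in morulae and 1 in 8-cell embryos, so the 3 rises among the 4 tested are no measure of the group. On RPM, 5 of 14 rose and 2 fell, against 20.4 and 36.6% of all genes on that scale. TKT, of the pentose phosphate pathway, measured 4.27, 10.7 and 1.84 RPKM in morulae and 0.0160, 0.0152 and 0.0297 RPKM in 8-cell embryos (adjusted p = 1.64e-05). SLC2A3, a glucose transporter, measured 1.43, 2.17 and 1.42 RPKM in morulae and 0.0316, 0.136 and 0.342 RPKM in 8-cell embryos (adjusted p = 2.00e-05), while SLC2A1, another such transporter, did not exceed 0.0140 RPKM in morulae or 0.0779 RPKM in 8-cell embryos. Sterol and lipid synthesis fell in 6 of 9 tested genes and rose in none, against 21.8 and 26.9% of all genes. Of 28 listed, 9 averaged at least 1 RPKM in 8-cell embryos and 4 in morulae, so some passed the filter only where they were high. On RPM, 11 of 21 fell and 1 rose, against 36.6 and 20.4% of all genes on that scale. HMGCS1, which makes the precursor of mevalonate, measured 0.297, 0.122 and 8.46 RPKM in morulae and 37.9, 50.05 and 38.2 RPKM in 8-cell embryos (log2 difference -4.16 ± 0.59, adjusted p = 5.95e-06). FDPS, further along the pathway, averaged 0.204 ± 0.0548 RPKM in morulae and 3.34 ± 0.697 RPKM in 8-cell embryos.

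More genes of chromosome segregation and replication fell than rose. Of 42 tested kinetochore, spindle and checkpoint genes, 16 fell, 12 of them early, and 3 rose. ASPM, which organises spindle poles, measured 0.271, 0.108 and 0.505 RPKM in morulae and 10.7, 10.6 and 7.75 RPKM in 8-cell embryos (log2 difference -3.04 ± 0.31, adjusted p = 1.05e-07). CENPF, a protein of the mitotic kinetochore, measured 2.46, 1.06 and 15.8 RPKM in morulae and 48.7, 40.4 and 31.4 RPKM in 8-cell embryos (log2 difference -3.04 ± 0.58, adjusted p = 1.29e-04). The rises included SPC25 and CENPK, which are kinetochore subunits. SPC25 averaged 7.68 ± 2.40 RPKM in morulae and 1.73 ± 0.925 RPKM in 8-cell embryos, and CENPK 6.63 ± 2.86 RPKM in morulae and 1.56 ± 0.202 RPKM in 8-cell embryos. The median log2 difference of the list was -0.70, against 0.01 over all genes tested, of which 21.8% fell and 26.9% rose. On RPM, 21 of 52 fell and 5 rose, against 36.6 and 20.4% of all genes on that scale. The median of the list was then -0.66, nearer that of all genes, -0.51.

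Of 24 tested DNA replication genes, 8 fell and 2 rose, against 21.8 and 26.9% of all genes. On RPM 20 of 38 fell and 5 rose, against 36.6 and 20.4% of all genes on that scale. POLE2, a subunit of DNA polymerase epsilon, averaged 1.67 ± 0.879 RPKM in morulae and 16.2 ± 2.86 RPKM in 8-cell embryos (adjusted p = 2.06e-06). CDC6, which loads the replicative helicase, averaged 1.73 ± 0.923 RPKM in morulae and 14.3 ± 0.976 RPKM in 8-cell embryos (adjusted p = 1.43e-06). DBF4, the activator of the kinase that fires origins, went the other way, with 7.04 ± 1.66 RPKM in morulae and 1.03 ± 0.290 RPKM in 8-cell embryos (adjusted p = 3.82e-05). RFC3, of the clamp loader, averaged 3.41 ± 0.552 RPKM in morulae and 1.10 ± 0.234 RPKM in 8-cell embryos, a rise that lost its call without morula B. Among 21 tested cyclins, kinases and inhibitors, 5 rose and 6 fell, near the shares over all genes. On RPM 11 of 38 rose and 13 fell. CCNE1, the cyclin of S-phase entry, averaged 6.52 ± 4.40 RPKM in morulae and 0.886 ± 0.250 RPKM in 8-cell embryos, and GMNN, the inhibitor of relicensing, 41.6 ± 12.9 RPKM in morulae and 11.2 ± 1.49 RPKM in 8-cell embryos. Falls included CDK7, the kinase that activates other cyclin-dependent kinases, at 1.66 ± 0.606 RPKM in morulae and 10.7 ± 0.565 RPKM in 8-cell embryos, and CCNO, at 0.647 ± 1.01 RPKM in morulae and 7.71 ± 3.24 RPKM in 8-cell embryos.

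Transcription factors of genome activation that were called had mostly changed by the 16-cell stage. Of 19 listed, 11 were tested, and 7 rose and 2 fell, against 26.9 and 21.8% of all genes. All 9 were classed early. Without both C libraries, 5 of 6 rises and 1 of 2 falls were early. KLF4, a zinc-finger factor of pluripotent cells, measured 44.6, 52.4 and 36.2 RPKM in morulae and 1.41, 1.77 and 1.29 RPKM in 8-cell embryos (log2 difference 4.18 ± 0.39, adjusted p = 4.23e-08). KLF17, a related factor of early embryos, measured 14.7, 17.2 and 54.9 RPKM in morulae and 0.810, 1.67 and 2.24 RPKM in 8-cell embryos (log2 difference 3.33 ± 0.47, adjusted p = 5.90e-06). The KLF17 value of morula C was above those of morulae A and B, and the 16-cell libraries held 73.0, 82.1 and 22.4 RPKM. KLF11 and MYCL fell, with log2 differences of -1.39 and -1.70.

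Markers of the later cell lineages mostly had low RPKM in both stages, a unit that division by the span lowers in long genes. Of 20 listed pluripotency genes, 7 were tested, and 3 rose and 2 fell, against 26.9 and 21.8% of all genes. On RPM, 6 of 14 rose and 4 fell, against 20.4 and 36.6% of all genes on that scale. POU5F1, the central factor of the pluripotent state, measured 1.67, 0.601 and 0.446 RPKM in morulae and 0.745, 0.880 and 0.748 RPKM in 8-cell embryos and was not called (adjusted p = 0.882). NANOG and SOX2, its partners, were under the filter and had no test. NANOG measured 0.258, 0.887 and 0.616 RPKM in morulae and 0.136, 0.218 and 0.221 RPKM in 8-cell embryos, and SOX2 3.36, 1.44 and 0.694 RPKM in morulae and 0.325, 0.183 and 0.204 RPKM in 8-cell embryos. In both genes the 3 morula values lay above the 3 8-cell values. PRDM14, a repressor that guards the germ line and pluripotent state in mice, averaged 2.61 ± 0.932 RPKM in morulae and 0.0935 ± 0.0745 RPKM in 8-cell embryos (adjusted p = 4.92e-07). GDF3, a growth factor of pluripotent cells, averaged 0.215 ± 0.186 RPKM in morulae and 3.97 ± 0.600 RPKM in 8-cell embryos (adjusted p = 5.32e-04), and LIN28A, an RNA-binding protein of stem cells, 0.607 ± 0.402 RPKM in morulae and 2.74 ± 0.457 RPKM in 8-cell embryos.

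Of 25 listed trophectoderm genes, 5 were tested, and 3 rose and 1 fell. On RPM 6 of 18 rose and 7 fell, against 20.4 and 36.6% of all genes on that scale. KRT8, a keratin of the outer epithelium, measured 1.36, 1.22 and 1.98 RPKM in morulae and 0.0271, 0.0125 and 0.0570 RPKM in 8-cell embryos (log2 difference 1.28 ± 0.32, adjusted p = 0.00160). TFAP2C, a trophectoderm transcription factor, measured 1.07, 0.832 and 1.52 RPKM in morulae and 0.01, 0.0408 and 0.0562 RPKM in 8-cell embryos (log2 difference 1.03), and without both C libraries its difference of 0.91 missed the threshold, as it did without morula C alone. BMP4, a signalling ligand, averaged 6.16 ± 3.04 RPKM in morulae and 0.846 ± 0.182 RPKM in 8-cell embryos (adjusted p = 2.75e-06). CDX2, the trophectoderm factor best known from mice, did not exceed 0.0199 RPKM in morulae or 0.0697 RPKM in 8-cell embryos. GATA3 measured 0.0254, 0.0224 and 0.283 RPKM in morulae and 0.451, 0.382 and 0.256 RPKM in 8-cell embryos, and neither gene was tested. GATA3 spans 30.2 kb and had 548 reads over the morula libraries and 1683 over the 8-cell libraries. Only 1 of 14 primitive endoderm genes and 2 of 13 genes of blastocoel ion and water transport passed the filter, and none of the 3 was called. On RPM, 3 of 9 primitive endoderm genes rose and 3 fell, and of 5 such transport genes 1 rose and 2 fell. ATP1B1, a sodium pump subunit, averaged 0.720 ± 0.801 RPKM in morulae and 1.16 ± 0.164 RPKM in 8-cell embryos, and AQP3, a water channel, did not exceed 0.0495 RPKM in morulae and had no read in 8-cell embryos.

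Junction genes, which seal and couple the cells of a compacting morula, included 10 tested of 39, with 3 rises and 4 falls. CLDN6, a claudin of tight junctions, measured 14.8, 6.20 and 3.46 RPKM in morulae and 1.27, 0.822 and 0.656 RPKM in 8-cell embryos (log2 difference 2.07 ± 0.68, adjusted p = 0.0113), and lost its call without morula A. GJB5, a gap-junction connexin, averaged 2.42 ± 0.590 RPKM in morulae and 0.125 ± 0.0327 RPKM in 8-cell embryos. Another connexin, GJC1, measured 0.864, 1.23 and 7.84 RPKM in morulae and 24.6, 23.8 and 20.6 RPKM in 8-cell embryos (adjusted p = 9.91e-06), and CLDN12 averaged 3.38 ± 3.10 RPKM in morulae and 20.8 ± 0.936 RPKM in 8-cell embryos. CDH1, the E-cadherin that holds the morula together, did not exceed 0.113 RPKM in morulae or 0.147 RPKM in 8-cell embryos and was not tested. It spans 72.8 kb, and the libraries of each stage together held 663 reads in morulae and 1268 in 8-cell embryos. Its low RPKM is therefore no sign of absence. GJA1, a further connexin, averaged 0.294 ± 0.122 RPKM in morulae and 1.05 ± 0.122 RPKM in 8-cell embryos and was not called. Of 18 tested genes on the cytoskeleton list, 8 rose and 3 fell, against 26.9 and 21.8% of all genes. The list also held S100A10 and LGALS1, and both are among the rises. TMSB4X, which binds actin monomers, had widely spread values, 6.25, 0.935 and 15.2 RPKM in morulae and 66.2, 21.98 and 90.3 RPKM in 8-cell embryos, and its call (adjusted p = 0.0199) was lost without 8-cell A, 8-cell C or morula B.

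Chromatin genes were mostly below the filter, and 17 of 86 histone modifiers and remodelers were tested. Of the 17, 6 rose and 2 fell, against 26.9 and 21.8% of all genes. With RPM 75 could be tested, of which 11 rose and 28 fell, against 20.4 and 36.6% of all genes on that scale. HDAC2, a histone deacetylase, measured 3.72, 9.81 and 10.5 RPKM in morulae and 0.469, 0.525 and 0.583 RPKM in 8-cell embryos (adjusted p = 2.33e-07), and HDAC3 averaged 0.0648 ± 0.0489 RPKM in morulae and 1.22 ± 0.357 RPKM in 8-cell embryos (adjusted p = 6.51e-06), a fall that lost its call without 8-cell B. SIRT1, a deacetylase that uses NAD, averaged 2.36 ± 0.852 RPKM in morulae and 0.0655 ± 0.0244 RPKM in 8-cell embryos. Of 6 tested DNA methylation genes, 3 fell and 1 rose, against 21.8 and 26.9% of all genes. DNMT1, the maintenance methyltransferase, measured 0.230, 0.199 and 3.37 RPKM in morulae and 17.5, 13.9 and 7.86 RPKM in 8-cell embryos (log2 difference -2.86 ± 0.51, adjusted p = 6.18e-05). UHRF2 averaged 0.327 ± 0.226 RPKM in morulae and 3.696 ± 1.56 RPKM in 8-cell embryos, while GADD45A, which takes part in DNA repair and demethylation, averaged 18.4 ± 6.85 RPKM in morulae and 4.10 ± 1.204 RPKM in 8-cell embryos.

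The transcription apparatus changed in both directions and the splicing apparatus rose more often than it fell. Of 36 tested RNA polymerase II and general factor genes, 12 rose and 4 fell, against 26.9 and 21.8% of all genes. Without both C libraries 9 rose and 5 fell, against 28.2 and 26.0% of all genes. With RPM, 14 of 60 rose and 17 fell, against 20.4 and 36.6% of all genes on that scale. POLR2I, a polymerase subunit, measured 29.3, 21.5 and 22.2 RPKM in morulae and 0.225, 0.0994 and 0.348 RPKM in 8-cell embryos (log2 difference 4.36 ± 0.42, adjusted p = 5.30e-08). POLR2G, another subunit, measured 175, 91.8 and 29.6 RPKM in morulae and 4.16, 3.604 and 6.73 RPKM in 8-cell embryos, with a wide spread among morulae. TBPL1, a relative of the TATA-binding protein used in germ cells, measured 7.26, 16.8 and 64.9 RPKM in morulae and 168, 147 and 141 RPKM in 8-cell embryos (adjusted p = 6.37e-05). Of 32 tested splicing genes, 14 rose, 10 of them early, and 2 fell, against 26.9 and 21.8% of all genes. SF3B5, of the U2 particle, measured 161, 203 and 154 RPKM in morulae and 10.3, 6.15 and 21.1 RPKM in 8-cell embryos (adjusted p = 1.23e-06). BUD31 averaged 9.74 ± 4.73 RPKM in morulae and 0.517 ± 0.149 RPKM in 8-cell embryos. The fall of SNRPD3, a core spliceosome protein (log2 difference -1.21), was lost without 8-cell C, morula A or morula B.

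Proteasome genes, which degrade ubiquitin-tagged proteins, showed 13 rises and 2 falls among 29 tested, against 26.9 and 21.8% of all genes. None of the rises was early, while 1 of 13 was without both C libraries and 3 of 14 on RPM. PSMB3, a subunit of the catalytic core, measured 30.2, 38.4 and 31.8 RPKM in morulae and 2.04, 2.02 and 3.36 RPKM in 8-cell embryos (log2 difference 3.33 ± 0.48, adjusted p = 7.57e-06). PSMG2, an assembly chaperone, averaged 18.6 ± 2.29 RPKM in morulae and 0.542 ± 0.0953 RPKM in 8-cell embryos. PSMA5 of the same core fell to 4.64 ± 2.70 RPKM in morulae, against 34.7 ± 2.48 RPKM in 8-cell embryos. Among 15 tested nuclear pore and transport genes, 2 rose and 4 fell, against the same shares of all genes. KPNA7, an import receptor of oocytes and early embryos, measured 0.982, 2.11 and 15.6 RPKM in morulae and 35.1, 46.3 and 34.6 RPKM in 8-cell embryos (log2 difference -3.07 ± 0.58, adjusted p = 1.21e-04), while IPO5, a general import receptor, averaged 2.53 ± 1.19 RPKM in morulae and 0.165 ± 0.0409 RPKM in 8-cell embryos.

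The counts of stress genes lay near those over all genes, 26.9 and 21.8%. Of 27 tested chaperones and endoplasmic reticulum stress genes, 6 rose and 5 fell, while after quantile normalization 1 rose and 8 fell. DNAJB9, a chaperone of the endoplasmic reticulum, measured 103, 94.2 and 178 RPKM in morulae and 5.73, 6.82 and 6.86 RPKM in 8-cell embryos (log2 difference 4.02 ± 0.53, adjusted p = 2.43e-06). DDIT3, a transcription factor of the stress response, measured 108, 196 and 825 RPKM in morulae and 49.2, 51.1 and 87.9 RPKM in 8-cell embryos, where morula C was more than 4 times the next morula and the log2 difference of 2.09 became 1.25 without both C libraries. HSP90B1, the endoplasmic reticulum chaperone of the HSP90 family, averaged 2.88 ± 1.74 RPKM in morulae and 12.2 ± 2.38 RPKM in 8-cell embryos. Of 10 tested antioxidant enzymes, 4 rose and 2 fell. PRDX5, a peroxiredoxin, averaged 20.6 ± 2.93 RPKM in morulae and 1.67 ± 0.193 RPKM in 8-cell embryos (adjusted p = 1.50e-05), and NQO1, a quinone reductase, 0.286 ± 0.466 RPKM in morulae and 5.54 ± 1.05 RPKM in 8-cell embryos (adjusted p = 4.03e-06). MCL1, which blocks apoptosis, averaged 15.6 ± 9.16 RPKM in morulae and 1.95 ± 0.271 RPKM in 8-cell embryos, and it and BIRC3 were the 2 rises among 5 tested apoptosis genes.

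Few genes went from silence to expression or back. Of the higher genes, 41 had at most 3 reads in every 8-cell library and 16 had none there. BEX5, of a family of small adaptor proteins, averaged 22.3 ± 9.31 RPKM in morulae with at most 1 read in any 8-cell library. CEBPD, a transcription factor, averaged 3.94 ± 2.82 RPKM in morulae with no read in 8-cell embryos. Both were early. Of the lower genes, 7 had at most 3 reads in every morula library, against 47 in morulae A and B alone. CRH, a hypothalamic peptide hormone, was 1 of these, with 7.66 RPKM on average in 8-cell embryos and at most 3 reads in any morula library. BEX5, CEBPD and CRH were chosen after their values were seen.

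Some abundant transcripts were not called. The named genes with the smallest differences at 50 RPKM or more in both stages were ATF4, a stress-response transcription factor, EIF5, the chaperone HSP90AA1, the recombination factor SFR1 and the kinase subunit CSNK2B, with log2 differences of 0.03, 0.12, -0.12, 0.30 and 0.34. After quantile normalization ATF4, EIF5 and SFR1 were lower in morulae instead, at -1.19, -1.04 and -1.03. HSP90AA1 measured 58.6, 80.7 and 96.5 RPKM in morulae and 80.2, 96.1 and 76.9 RPKM in 8-cell embryos. A miss of the threshold does not show that such genes were equal. The number of genes at 1 RPKM or more was 2820 ± 212 in morulae and 2890 ± 31.5 in 8-cell embryos, a difference of -70.0 (exact two-sided permutation test, p = 0.7, where 3 libraries against 3 cannot give less than 0.1). The direction depended on the threshold. At 0.1 RPKM the means were 6617 in morulae and 7328 in 8-cell embryos, and at 5 RPKM 1256 and 1083 (p = 0.1 for each by the same permutation test).

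The span of a gene went with the direction of its change. The higher genes had a median span of 3.92 kb and the lower genes 13.4 kb, against 8.00 kb over all genes tested. Among genes under 5 kb, 38.6% were higher and 17.5% lower. Among genes of 20 kb and over, 10.8% were higher and 31.4% lower. Division by the span lowers the RPKM of long genes, and with it their chance to pass the filter. On RPM, with the same filter value, the median log2 difference over the 10384 genes was -0.51. On that scale 48.9% of genes of 20 kb and over were lower. Of the 2071 called genes, 2009 were called with the same sign there and 0 with the other sign. The part of span in these differences was not tested. Of 42 tested lincRNA genes, 6 were higher and 15 lower, against 26.9 and 21.8% of all genes tested.

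**Figure D5:**
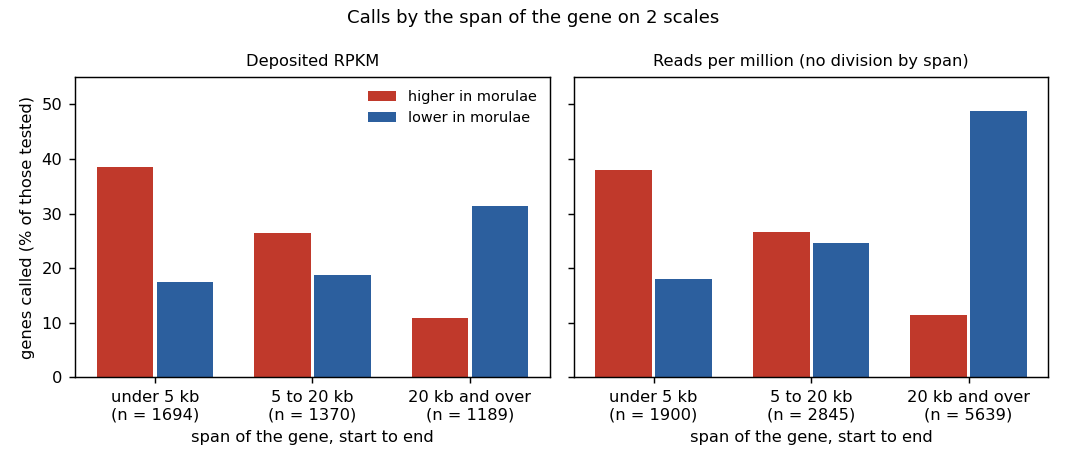
Percent of tested genes called higher (red) or lower (blue) in morulae than in 8-cell embryos, by gene span (kb), on the deposited RPKM (left) and on RPM, scaled by library size alone (right); n is the number of genes tested in the bin. Among genes of 20 kb and over, 10.8% were higher and 31.4% lower on RPKM, and 11.3 and 48.9% on RPM.

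Markers of maternal cells that could adhere to embryos were low. The summed level of 12 cumulus and granulosa markers was 0.195 to 3.29 RPKM in morulae and 1.63 to 2.41 RPKM in 8-cell embryos, mostly STAR and TNFAIP6, with AMH, FSHR and LHCGR at or under 0.0250 RPKM. The sum of 13 oviduct and uterine markers was 2.29 to 4.10 RPKM in morulae and 0.867 to 1.02 RPKM in 8-cell embryos, led by EPCAM, an epithelial adhesion protein that embryos also express, and TPPP3. FOXJ1, which defines ciliated cells, stayed at or under 0.0307 RPKM. The sum of 5 red blood cell markers was 0.0520 to 0.235 RPKM in morulae and 0.372 to 0.604 RPKM in 8-cell embryos. The sum of 11 leukocyte markers was 0.223 to 0.335 RPKM in morulae and 0.268 to 20.8 RPKM in 8-cell embryos, where S100A12 reached 17.2 RPKM in 8-cell C alone, while PTPRC, the common leukocyte antigen, was at or under 0.0272 RPKM. The sum of 11 stromal markers was 0.176 to 2.16 RPKM in morulae and 3.10 to 3.32 RPKM in 8-cell embryos, mostly DCN and LUM, higher in morula C than in the other morulae, with COL1A1 at or under 0.149 RPKM. Of all 52 markers, 5 were tested, TPPP3 rose (log2 difference 1.23) and DCN fell (log2 difference -1.03), a call lost without 8-cell A, morula A or morula B. Their part in the results above was not tested.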

How the data were processed

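RNA was sequenced from goat oocytes and embryos of 7 stages, with 3 libraries per stage. Reads were checked with FastQC, aligned with STAR 2.5.3a and quantified in Partek, per the submitters' processing notes, and the genome build and the counting rules (strand, reads with several matches) are not stated there or in the other sources. The authors deposited RPKM values per gene, with gene positions. Steps between low values, checked on the deposited RPKM, are whole multiples of what 1 read is worth for 94.3 to 95.8% of values of each of the 9 libraries used (tolerance 0.05 of a step) once 0.01 is taken off and the length is the span between gene start and end. Gene reads per library were recovered in this way.

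Values were taken as log2(RPKM + 1). Genes at 1 RPKM or more in at least 3 libraries were tested with limma 3.58.1 in R 4.3.3, with 1 mean per stage, moderated variances and Benjamini-Hochberg adjustment over all tested genes. A call needed an adjusted p below 0.05 and a log2 difference of at least 1. The code was tested on simulated data. Single values per library were compared by exact permutation, for which 3 against 3 libraries allow no p under 0.1. Tables and figures were made in Python 3.11.15 with numpy 2.4.6, pandas 2.3.3 and matplotlib 3.10.9.

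The 38 gene lists hold 1469 symbols, of which 1069 are in the table. Genes counted as listed in the results are those found by symbol. Of the 19040 genes, 13323 carry a symbol, so members without one were not matched. The comparison, the lists and the genes followed were chosen with earlier results of these data known. Named genes were the 12 largest rises and falls with a symbol, no overlap between stages and a mean of at least 10 RPKM in the higher stage, the 5 largest late rises and falls under the same conditions, up to 2 called members of each list in each direction, the 5 smallest differences at 50 RPKM or more in both stages, and a fixed set of embryo genes. A gene that met this rule is not reported here. RPSA, NDUFS5, NDUFB4, BEX5, CEBPD, CRH, the marker genes and those in the closing section were added after their values were seen. The library letters do not pair the stages: the deviations of same-lettered morula and 8-cell libraries from their stage means correlated at 0.04, -0.03 and -0.01 for A, B and C.

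Alternatives were other pseudocounts, other filters on low values, median-ratio and quantile scaling, array weights, a fit of the 2 stages alone, the letter as a block, leaving out single libraries, RPM (reads scaled by library size without gene length) in place of RPKM, and leaving out both C libraries. The counts of list members without both C libraries, after quantile normalization and on RPM, and the division in time without both C libraries, were added after the data had been seen.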

Additional observations from a re-analysis of the deposited data

How the results depend on the processing

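Over the alternatives run, single libraries left out gave 1907 to 2305 called genes, 1093 to 1201 higher and 801 to 1104 lower ones. Early rises then numbered 397 to 562 and early falls 471 to 752. A filter of 5 RPKM left 1291 calls (762 higher, 529 lower, 290 of the falls early), and a pseudocount of 5 left 907 (593 higher, 314 lower, 219 and 193 of them early). A pseudocount of 0.1 gave 1439 lower genes. RPM gave 5920 calls (2120 higher, 3800 lower, 934 and 2189 of them early) over more genes tested. The cause of the other shifts was not tested. The difference in genes detected, -70.0 at 1 RPKM, was -711 at 0.1 RPKM and 173 at 5 RPKM. At 1 RPKM it lay between -187 and 20.8 with single libraries left out. With the letter as a replicate block, 2075 genes were called, 1142 higher and 933 lower. The share of calls that were higher was 55.2%, against 48.3% after quantile normalization, which moved the median of all genes to -0.13, and 65.4% with a pseudocount of 5. Of 2298 alternatives over 129 named genes, 2195 kept direction and side of the threshold, 96 lost the call, 4 gained it and 3 turned: ATF4 at -1.19, EIF5 at -1.04 and SFR1 at -1.03, all after quantile normalization. A pseudocount of 5 alone ended 40 of the 96. For a gene of 10 kb, 3 reads correspond to 0.00482 to 0.0125 RPKM in the libraries compared, so counting limits only the lowest values, and depth was lowest in morula B.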

Other observations

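Some genes peaked at the 16-cell stage, so that a comparison of morulae with 8-cell embryos alone does not show them. By the same thresholds, 86 genes were called higher in 16-cell than in 8-cell embryos and lower in morulae than in 16-cell embryos, and 66 of these were not called over the whole interval. Both steps use the same 16-cell libraries, which by itself favours such opposed calls. RBM3, a cold-inducible RNA-binding protein, averaged 6.15 ± 3.05, 170.1 ± 164 and 11.2 ± 8.54 RPKM at the 8-cell, 16-cell and morula stages (SD, n = 3 each). PCDH8, a protocadherin, averaged 0.596 ± 0.318, 20.51 ± 7.87 and 2.75 ± 2.56 RPKM, and TMEM37, a calcium-channel subunit relative, 2.20 ± 1.40, 62.4 ± 24.5 and 24.6 ± 24.0 RPKM. TMEM37 was also called over the whole interval (log2 difference 2.67, limma, adjusted p = 5.55e-05), while RBM3 was not (log2 difference 0.63, adjusted p = 0.385). These genes were chosen after their values were seen.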
